A study of Sus scrofa with 24 samples.

Results

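Cathepsins are proteases of the lysosome, and 10 of their genes (CTSA, CTSB, CTSC, CTSD, CTSF, CTSH, CTSK, CTSL, CTSS and CTSZ) were examined in the longissimus dorsi muscle (LDM) of pig fetuses. The members were all probe sets of the array whose annotated gene symbol was one of these 10. This gave 15 of the 47845 probe sets, for 9 of the 10 genes. CTSF is not analysed here because no probe set carried its name. The probe sets for CTSL are annotated CTSL1, an older symbol, and CTSL1 is the name used here. The pig gene table of RefSeq gives CTSL1 as a synonym of CTSV, so these probe sets may read either gene. Of the 15 probe sets, 4 (that of CTSB, the brighter one of CTSL1, and the brightest of CTSH with another of that gene) carry the manufacturer's mark for probes shared by more than 1 transcript.

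The 24 samples were F2 fetuses of a cross between the pig breeds German Landrace (DL) and Pietrain (Pi), taken at 63 dpc (days post conception), with 1 Affymetrix Porcine Snowball array each. The study compared intrauterine growth restricted (IUGR) fetuses with littermates appropriate for gestational age (AGA), and its methods describe sib pairs chosen for extremes of weight from several dams mated to a common sire. Weight is not given for single fetuses in the labels, so all 24 stayed unassigned, no weight groups were compared, and each fetus goes by its number. Littermates and paternal half-sibs are not fully independent. No fit or permutation held a term for dam, sex or weight, so p-values can be too small. They refer only to these 24 fetuses, which span both weights, both sexes and several litters.

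A cathepsin is made as an inactive precursor, tagged with mannose 6-phosphate in the Golgi apparatus, carried to the lysosome by mannose 6-phosphate receptors and activated there by cleavage at acidic pH. Inside the lysosome cathepsins degrade proteins that arrive by endocytosis and autophagy, and cystatins inhibit those that leak out. In skeletal muscle the lysosome works beside the proteasome and the calpains in protein turnover, and cathepsin L is known in rodents as a gene that rises in wasting muscle. The family holds a serine carboxypeptidase (CTSA), an aspartic protease (CTSD) and cysteine proteases of the papain family (the others).

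The values are log2 signals after robust multichip averaging (RMA), which gives every array a similar distribution. Array medians ran from 6.61 (fetus 283) to 6.73 (fetus 376). A probe set was tested where it lay above its array's median in at least 20 of the 24 arrays, which kept 21902 probe sets of 9710 named genes. Of the 15 cathepsin probe sets, 14 passed. The other was the dimmer CTSS probe set, above the median in 3 arrays. The first principal component took 39.7% of the variance over genes and had a correlation of 0.77 with the mean signal of control probe sets that match no transcript, called the background control signal here. Fetus 338 had the lowest median correlation with the other arrays (0.946) and the lowest score on that component. Fetus 376 had the highest array median. Leaving out these 2 fetuses was chosen after the data were seen. The component can hold differences between weights, sexes, litters and arrays. These were not told apart, since the study's listing of dam, sex and weight was not used. A fit with the component as a covariate takes out only the part of these differences that lies along the component. Calls that remain in such a fit can still hold differences between weights, sexes and litters.

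Markers of the labelled tissue were measured in every fetus. The 16 measured skeletal muscle fibre markers had a mean level of 12.39 to 12.65 over the fetuses, and the 13 connective tissue markers had 11.71 to 12.22. For macrophages, 10 of 17 markers passed the filter, with a mean level of 7.53 to 7.93. These means are of different probe sets and give no order between the lists. CD68, CSF1R and C1QB, which define macrophages, had no probe set named here, and CD163, LYZ, PTPRC and ITGAM did not pass. The samples are pieces of whole muscle, in which fewer cells of a type and less RNA per cell cannot be told apart.

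All 9 measured cathepsin genes gave a signal above the array median in all 24 fetuses at their brightest probe set. Signal above the brightest class of background controls, those with 24 G or C bases and a median of 9.71, was a stricter mark. Of the 21902 probe sets past the filter, only 1661 exceeded it in at least 20 arrays, so most genes fell short of it. CTSB and CTSL1 exceeded it in 24 fetuses and CTSK in 22. CTSZ exceeded it in 5 fetuses and CTSH in 3. CTSA, CTSC, CTSD and CTSS were below it in every fetus, so their values can hold more unspecific signal. Each gene is set only against itself below, since levels of different probe sets on an array cannot be ranked.

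CTSB, an endopeptidase that can also trim dipeptides from the C-terminus, ran from 10.29 in fetus 311 over a median of 10.66 to 11.02 in fetus 324. CTSL1, read here as the endopeptidase cathepsin L with the limit given above, ran from 11.36 in fetus 283 over 11.75 to 12.05 in fetus 327. CTSD, the main aspartic protease of the lysosome, ran from 7.98 in fetus 338 over 8.50 to 8.75 in fetus 370. These general degradative proteases thus had their lowest and highest values in different fetuses. Away from the ends, the widest gap between neighbouring values was 0.083 of the range for CTSB, 0.074 for CTSL1 and 0.15 for CTSD. Such a gap cannot show groups that adjoin or overlap.

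Among the exopeptidases, CTSA, which also protects beta-galactosidase and neuraminidase in a complex, ran from 8.002 in fetus 376 over a median of 8.54 to 8.85 in fetus 283. CTSH, chiefly an aminopeptidase, ran from 8.95 in fetus 311 over 9.59 to 9.97 in fetus 324. CTSZ, a carboxypeptidase also called cathepsin X, ran from 8.81 in fetus 338 over 9.60 to 9.94 in fetus 272. Fetuses 338 and 376 were each among the 3 lowest for all 3 of these genes. CTSC, the dipeptidyl peptidase that activates granule proteases of immune cells, had the narrowest range, from 8.44 in fetus 283 over 8.71 to 8.96 in fetus 324. Fetus 338, low for CTSA, CTSH and CTSZ, was near the top for CTSC at 8.88.

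CTSK and CTSS have specialised roles. CTSK, the collagen-degrading protease best known from osteoclasts, ran from 9.56 in fetus 384 over a median of 10.25 to 10.67 in fetus 370, a 2.16-fold range. CTSS, which cuts the invariant chain of MHC class II in antigen-presenting cells, ran from 6.95 in fetus 313 over 7.55 to 7.999 in fetus 324, a 2.07-fold range.

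**Figure D1:**
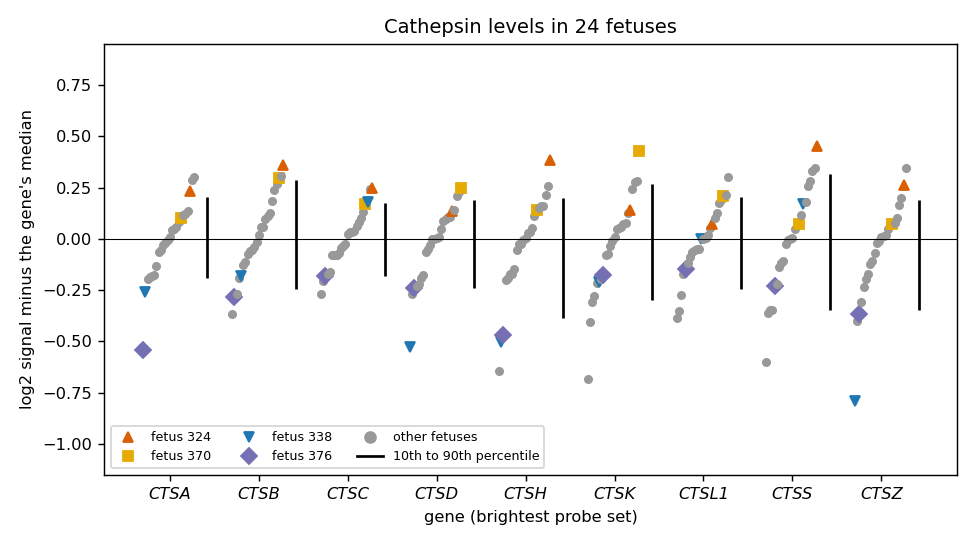
Log2 signal of each cathepsin gene (brightest probe set) minus that gene's median, in 24 fetuses. Each point is 1 fetus, sorted within its gene, and the bar beside them runs from the 10th to the 90th percentile. Fetuses 324 and 370 lie above the median for 9 of 9 genes, fetus 376 lies below it for all 9, and fetus 338 is lowest for CTSD and CTSZ but above the median for CTSC and CTSS.

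The span of a gene, its 90th minus its 10th percentile over the 24 fetuses, had a median of 0.42 over all 9710 genes and 0.53 over the 9 cathepsins. CTSS had the widest span among them (0.67), followed by CTSH (0.59) and CTSK (0.57). With the background control signal regressed out, the order changed to CTSK (0.58), CTSB (0.50) and CTSS (0.49), and CTSH had 0.44. CTSC and CTSD (both 0.36) were then below the median gene, also 0.36, and CTSA (0.39) was above it. CTSA (0.40) and CTSC (0.35) were below the median gene, and the other 7 above it. CTSD (0.43) and CTSL1 (0.44) were close to the median gene, and both fell below it without the filter or when each array was centred on its median. A span of 0.67 is a 1.59-fold difference, so most of the spread in these genes was small in size.

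Fetuses differed in how many cathepsins were high together. Fetuses 324 and 370 were above the gene's median for 9 of 9 genes. Fetus 324 was the highest of all for CTSB, CTSC, CTSH and CTSS. Fetuses 363 and 376 were above the median for 0 of 9. Over the 9 genes, the mean level ran from 9.17 in fetus 376 over 9.45 to 9.71 in fetus 324.

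The relation of each pair of cathepsins was tested by limma, with the level of 1 gene as a covariate for all 21902 probe sets less its own, and Benjamini-Hochberg adjustment over all of them. A pair was called where both fits gave an adjusted p under 0.05. Of 36 pairs, 10 were called, and these were the 10 pairs among CTSA, CTSB, CTSD, CTSH and CTSZ. This set of 5 genes was noticed after the values were seen. Pearson's r within it ran from 0.56 to 0.79 with a median of 0.68. Between these 5 genes and the other 4, r ran from -0.22 to 0.37 with a median of -0.02. Called positive relations were common on these arrays. They made up 23.3% of all probe sets for CTSA, 21.2% for CTSB, 23.1% for CTSD, 17.3% for CTSH and 18% for CTSZ. Each of the 5 genes had positive calls with 4 of the 8 other cathepsins.

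The closest pair was CTSA and CTSD, with r = 0.79 (permutation p = 1e-05, the smallest that 100000 permutations can give), Spearman's rho = 0.81 (permutation p = 1e-05) and an adjusted p of 0.00037 in limma. Without the 2 fetuses farthest from the CTSA median, r was 0.81. CTSD and CTSH had r = 0.77 (permutation p = 4e-05, rho = 0.83) with an adjusted p of 0.0016 in limma. The least close called pair was CTSB and CTSD, with r = 0.56 (permutation p = 0.0038, rho = 0.58) and an adjusted p of 0.016 in limma.

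The 10 pairs were not all steady. Without fetuses 338 and 376, 5 of the 10 remained, and r within the 5 genes ran from 0.45 to 0.80. The 5 pairs lost were CTSA with CTSH, CTSA with CTSZ, CTSB with CTSD, CTSB with CTSH, and CTSD with CTSZ. With the first principal component as a covariate, 0 of 36 pairs passed in limma, and r within the set ran from 0.02 to 0.61. The correlations of the 5 genes with that component were 0.63 (CTSA), 0.71 (CTSB), 0.78 (CTSD), 0.63 (CTSH) and 0.64 (CTSZ). With the background control signal as a covariate, 9 of the 10 pairs remained, without CTSB and CTSD. When the 2 farthest fetuses of each fit were left out, 8 remained, without CTSB with CTSH and CTSD with CTSZ.

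**Figure D2:**
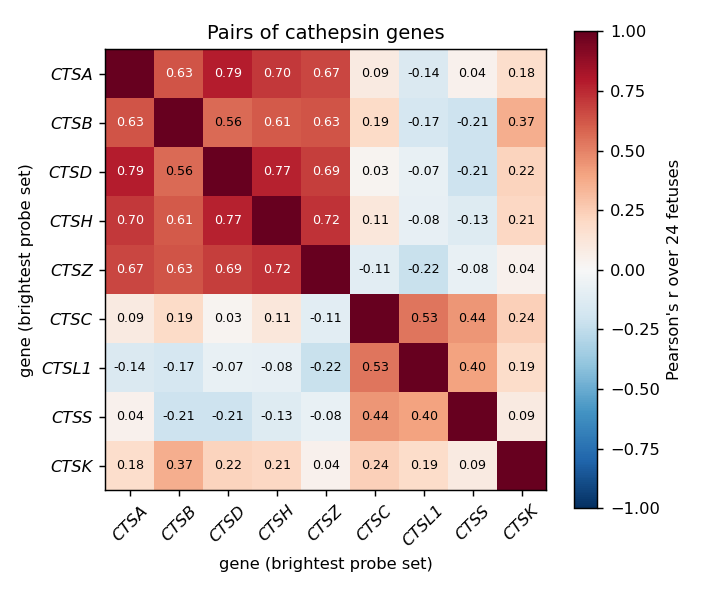
Pearson's r over 24 fetuses for each pair of the 9 cathepsin genes, at the brightest probe set, on a colour scale from -1 to 1. CTSA, CTSB, CTSD, CTSH and CTSZ form a block with r from 0.56 to 0.79, and r between this block and the other 4 genes does not exceed 0.37.

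Outside the block, the closest pairs were CTSC with CTSL1 (r = 0.53, permutation p = 0.0072, adjusted p = 0.55 in limma) and CTSC with CTSS (r = 0.44, permutation p = 0.033, adjusted p = 0.62 in limma). CTSL1 and CTSS had r = 0.40 (permutation p = 0.052, adjusted p = 0.28 in limma). None of these 3 pairs passed the adjustment. The CTSC fit called 0.0% of probe sets in limma (0 of 21901, with 1623 at an unadjusted p under 0.05), the CTSL1 fit 0.566% and the CTSS fit 18.7%, counting both directions. CTSK and CTSS are neighbours in the pig assembly Sscrofa11.1, with 0 annotated genes between them. Their levels had r = 0.09 over the fetuses (permutation p = 0.67, adjusted p = 0.98 in limma).

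Several cathepsins had more than 1 probe set, and these did not always move together. The 2 CTSL1 probe sets had r = 0.85. The 4 CTSH probe sets had r from 0.15 to 0.77 with each other, and the 3 dimmer ones had r of 0.44, 0.63 and 0.67 with the brightest. For CTSK the dimmer probe set, at a median of 7.43, had r = 0.25 with the brighter one. The dimmer CTSS probe set, below the filter, had r = -0.23 with the brighter one. A CTSK or CTSS value therefore rests on the probe set that was read.

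Other genes of the lysosome were taken from lists of known function. Of 28 other lysosomal hydrolases, 18 passed the filter. Of these 18, 15 were called with a positive relation to CTSD, 13 to CTSA, 12 to CTSH, 11 to CTSZ and 10 to CTSB, and 0 with a negative one. As shares these are 83.3%, 72.2%, 66.7%, 61.1% and 55.6%, beside the 23.1%, 23.3%, 17.3%, 18% and 21.2% of all probe sets. The median r of the 18 was 0.62 with CTSD, against 0.16 over all probe sets, and 0.63 with CTSA, against 0.09. With CTSC, CTSK, CTSL1 and CTSS, 0 of the 18 were called in limma, and the median r ran from -0.12 (CTSS) to 0.27 (CTSK). Positive calls over all probe sets were 0.0% for CTSC, 0.183% for CTSK, 0.489% for CTSL1 and 12.6% for CTSS. The fits on CTSC, CTSK and CTSL1 called so few probe sets that 0 of 18 cannot show a lack of relation. At an unadjusted p under 0.05 the fits on CTSC, CTSK, CTSL1 and CTSS held 1623, 1814, 3664 and 8246 of all probe sets.

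Hydrolases with the highest correlations were arylsulfatase A (annotated AS-A, a sulfatide-degrading enzyme), with r = 0.89 with CTSZ (adjusted p = 0.00082 in limma), HEXA (the alpha chain of beta-hexosaminidase), with r = 0.87 with CTSH (adjusted p = 0.00011 in limma), and SMPD1 (acid sphingomyelinase), with r = 0.83 with CTSD (adjusted p = 3e-05 in limma). HEXA ran from 8.33 over a median of 8.94 to 9.33. The enzymes held with CTSA in a complex, chosen for naming after their values were seen, were both called with it. GLB1 (beta-galactosidase) had r = 0.71 (adjusted p = 0.00097 in limma) and NEU1 (neuraminidase) had r = 0.55 (adjusted p = 0.022 in limma). NEU1 was no longer called without fetuses 338 and 376 (r = 0.37, adjusted p = 0.19 in limma), and the others were. In fits with the first principal component as a covariate, HEXA with CTSH (r = 0.78, adjusted p = 0.025 in limma) and GLB1 with CTSA (r = 0.56, adjusted p = 0.021 in limma) were still called, and AS-A, SMPD1 and NEU1 were not (adjusted p = 0.13, 0.13 and 0.38 in limma).

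Without fetuses 338 and 376, the hydrolase counts were 10 of 18 for CTSA, 8 for CTSB, 10 for CTSD, 6 for CTSH and 1 for CTSZ, beside 16%, 15.6%, 14.2%, 4.6% and 5.78% of all probe sets. With the first principal component as a covariate they were 6 for CTSA, 1 for CTSH and 0 for CTSB, CTSD and CTSZ in limma, beside 12.8% of all probe sets for CTSA and at most 1.31% for the other 4. With the background control signal as a covariate they were 13 for CTSA, 9 for CTSB, 12 for CTSD, 10 for CTSH and 7 for CTSZ. Of all 21901 probe sets (21898 for CTSH), 5143, 3938, 3661, 2463 and 1977 were then called positive with these genes. Of the 18 hydrolases, 7 were themselves called with the background control signal, all positive. Of all 21902 probe sets, 41.6% were called with it, 4377 positive and 4736 negative.

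**Figure D3:**
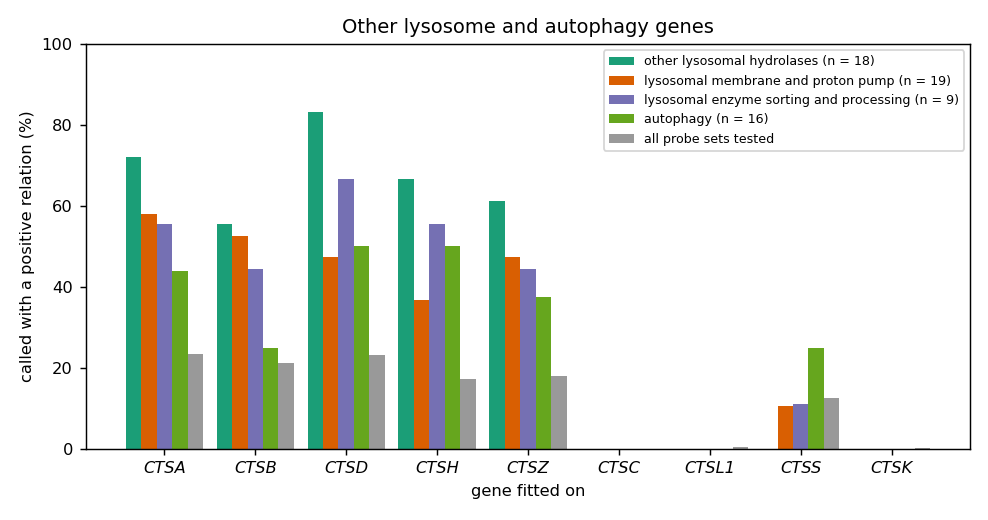
Percentage of genes called with a positive relation to each cathepsin (limma, adjusted p under 0.05), for 18 other lysosomal hydrolases, 19 membrane and proton pump genes, 9 sorting and processing genes, 16 autophagy genes, and all probe sets tested (grey). For the hydrolases the bars are between 55.6% and 83.3% at CTSA, CTSB, CTSD, CTSH and CTSZ, and 0.0% at CTSC, CTSL1, CTSS and CTSK. The grey bars are 0.0% at CTSC, 0.489% at CTSL1, 12.6% at CTSS and 0.183% at CTSK.

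The membrane and proton pump of the lysosome gave a mixed picture. Of 19 genes, 11 were called positive with CTSA, 10 with CTSB, 9 with CTSD, 9 with CTSZ and 7 with CTSH, which is 57.9%, 52.6%, 47.4%, 47.4% and 36.8%, beside 23.3%, 21.2%, 23.1%, 18% and 17.3% of all probe sets. The counts for CTSA, CTSB, CTSD, CTSZ and CTSH without fetuses 338 and 376 were 6, 7, 5, 2 and 4. Of all 21901 probe sets (21898 for CTSH), 3499, 3413, 3099, 1265 and 1008 were then called positive. With the first principal component as a covariate the counts were 4, 0, 1, 0 and 1 in limma, beside 2795, 28, 287, 0 and 138 of all probe sets. ATP6V0D1, a subunit of the proton pump that acidifies the lysosome, was nearest, with r = 0.84 with CTSD (adjusted p = 2.6e-05 in limma). ATP6V0C, which forms the pump's membrane ring, had r = 0.78 with CTSH (adjusted p = 0.0014 in limma), and NPC1, a cholesterol exporter, had r = 0.78 with CTSB (adjusted p = 0.0011 in limma). LAMP2, a main membrane protein of the lysosome, and ATP6V1C1, a cytosolic subunit of the same pump, went the other way, and both were chosen for naming after their values were seen. LAMP2 had r = -0.52 with CTSB (adjusted p = 0.025 in limma) and 0.54 with CTSS (adjusted p = 0.036 in limma). ATP6V1C1 had r = -0.59 with CTSB (adjusted p = 0.0085 in limma) and 0.64 with CTSS (adjusted p = 0.017 in limma). Both also fell with the background control signal, with r = -0.80 for LAMP2 and -0.63 for ATP6V1C1. With that signal as a covariate, neither was called with CTSS (r = 0.0019 for LAMP2 and 0.37 for ATP6V1C1, adjusted p = 1.0 and 0.74 in limma). With CTSB, ATP6V1C1 was still called (r = -0.54, adjusted p = 0.028 in limma) and LAMP2 was not (r = -0.49, adjusted p = 0.074 in limma). None of the relations named for ATP6V0D1, ATP6V0C, NPC1, LAMP2 and ATP6V1C1 was called with the first principal component as a covariate, and ATP6V0D1 with CTSD came nearest (r = 0.64, adjusted p = 0.051 in limma).

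Sorting and processing genes were called positive for 6 of 9 with CTSD, 5 with CTSA, 5 with CTSH, 4 with CTSB and 4 with CTSZ. LGMN, the asparaginyl protease that cleaves cathepsins in the lysosome, had r = 0.81 with CTSB (adjusted p = 0.00021 in limma). PSAP, the precursor of the saposins, had r = 0.81 with CTSH (adjusted p = 0.0009 in limma). IGF2R, the larger mannose 6-phosphate receptor, had r = 0.75 with CTSA (adjusted p = 0.00051 in limma). The median r of the list with CTSA was 0.65, beside 0.09 over all probe sets. As shares the counts for CTSD, CTSA, CTSH, CTSB and CTSZ were 66.7%, 55.6%, 55.6%, 44.4% and 44.4%, beside 23.1%, 23.3%, 17.3%, 21.2% and 18% of all probe sets. These counts became 3, 3, 3, 4 and 1 without fetuses 338 and 376. Of all 21901 probe sets (21898 for CTSH), 3099, 3499, 1008, 3413 and 1265 were then called positive. When the first principal component was a covariate, CTSA had 4 and the other 4 cathepsins 0 in limma. This stands beside 2795 of all probe sets for CTSA and at most 287 for the other 4. IGF2R with CTSA was still called (r = 0.57, adjusted p = 0.021 in limma), while LGMN with CTSB (adjusted p = 0.11 in limma) and PSAP with CTSH (adjusted p = 0.058 in limma) were not.

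Of the inhibitors, 5 of 8 were measured. CST3 (cystatin C) had r = 0.67 with CTSH (adjusted p = 0.0046 in limma), and CSTB (cystatin B) had r = 0.75 with the same gene (adjusted p = 0.0022 in limma). SERPINB9, an inhibitor of granzyme B, had r = 0.75 with CTSZ (adjusted p = 0.0032 in limma). The list had 3 positive calls each with CTSA and CTSD, 2 each with CTSB and CTSH, 1 with CTSZ and none with the other 4 cathepsins in limma. With so few genes, these counts are read only beside the 23.3% (CTSA), 23.1% (CTSD), 21.2% (CTSB), 17.3% (CTSH) and 18% (CTSZ) of all probe sets. The counts without fetuses 338 and 376 were 1 each for CTSA and CTSD, 2 each for CTSB and CTSH and 0 for CTSZ in limma, so SERPINB9 was no longer called (adjusted p = 0.059 in limma). Only CSTB with CTSH kept its positive call with the first principal component as a covariate (r = 0.72, adjusted p = 0.032 in limma), and 1 negative call with CTSA appeared.

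Of 9 measured regulators of lysosome genes, 3 were called positive with each of CTSB, CTSD and CTSH, 2 with CTSS (RRAGD and RRAGC) and 1 each with CTSA and CTSZ, and 1 was called negative with CTSB. The positive shares over all probe sets were 21.2% for CTSB, 23.1% for CTSD, 17.3% for CTSH, 12.6% for CTSS, 23.3% for CTSA and 18% for CTSZ. MTOR, the kinase that holds TFEB in the cytosol when nutrients are plentiful, had r = 0.78 with CTSB (adjusted p = 0.00062 in limma). RRAGD, a small GTPase that recruits this kinase to the lysosome, had r = 0.72 with CTSS (adjusted p = 0.011 in limma), a call lost with the background control signal (r = 0.46, adjusted p = 0.71 in limma) or the first principal component (r = 0.66, adjusted p = 0.072 in limma) as a covariate. The related RRAGA had r = 0.65 with CTSK (adjusted p = 0.12 in limma). MTOR with CTSB was lost with the first principal component (adjusted p = 0.23 in limma). TFEB, the transcription factor that drives many lysosome genes, was not called with CTSD (r = 0.49, adjusted p = 0.056 in limma) and had r = 0.85 with the background control signal. The named autophagy genes were ATG16L1 and GABARAPL1, with r = 0.78 with CTSA for both, and MAP1LC3A, with r = 0.77 with CTSB. MAP1LC3A with CTSB was not called with the first principal component as a covariate (adjusted p = 0.23 in limma), and the other 2 were. CTSD had positive calls with 8 of 16 autophagy genes and negative calls with 3. Over all 21901 probe sets, 5057 were positive and 3112 negative with CTSD. The autophagy counts were 5 and 3 without fetuses 338 and 376, beside 3099 and 2512 of all probe sets. With the first principal component they were 1 and 0 in limma, beside 287 and 40. In the main fits, CTSA had 7 positive and 3 negative autophagy calls, CTSH 8 and 3, CTSZ 6 and 3, CTSB 4 and 2, and CTSS 4 and 0.

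CTSO was the only other cathepsin measured of 5 looked for. It ran from 8.46 over a median of 9.07 to 9.36. Its r was 0.57 with CTSS (adjusted p = 0.026 in limma), and -0.56 with CTSH, -0.51 with CTSZ and -0.49 with CTSB (adjusted p = 0.018, 0.031 and 0.034 in limma). CTSO also had r = -0.77 with the background control signal. With that signal as a covariate, none of these 4 relations was called (r = 0.11 with CTSS, -0.46 with CTSH, -0.24 with CTSZ and -0.42 with CTSB, with adjusted p = 0.94, 0.098, 0.42 and 0.11 in limma). Only CTSO with CTSS was still called without fetuses 338 and 376 (adjusted p = 0.044 in limma).

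Scores of cell type markers, each the mean of the markers' centred log2 values, were then set beside the cathepsins, with 9 genes and 5 measures in all. CTSK was higher in fetuses with a higher connective tissue score. Its level had r = 0.74 with the connective tissue score (permutation p = 2e-05) and rho = 0.79 (permutation p = 1e-05, the smallest possible), with an adjusted p of 0.0037 in limma. Without the 2 fetuses farthest from the median score, r was 0.69. Of the 9 cathepsins, CTSK was the 1 gene called, beside 1.64% of all probe sets. CTSL1 (r = 0.49, permutation p = 0.014, adjusted p = 0.33 in limma) and CTSC (r = 0.40, permutation p = 0.053, adjusted p = 0.61 in limma) came next and did not pass. With the first principal component as a covariate, r for CTSK was 0.76 and the call held (adjusted p = 0.00091 in limma). Without fetuses 338 and 376, r was 0.73 (adjusted p = 0.0086 in limma).

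The dimmer CTSK probe set did not show this relation, with r = 0.20 (adjusted p = 0.88 in limma). The mean of both CTSK probe sets had r = 0.54 (adjusted p = 0.14 in limma), so the call rested on the brighter probe set. That probe set was above the brightest background class in 22 arrays and the dimmer one in 0. The genes nearest to CTSK were FBLN1 (fibulin, a matrix protein; r = 0.82), ALDH1L2 (a mitochondrial folate enzyme; r = 0.82) and COL5A1 (a fibrillar collagen chain; r = 0.80), all called among only 0.187% of probe sets. Of the 13 connective tissue markers, 0 were called singly with CTSK in limma, where 1814 probe sets had an unadjusted p under 0.05, and their median r was 0.51 beside 0.03 over all probe sets. The 6 osteoclast markers measured had a median r of 0.11 with CTSK and 0 calls in the same limma fit.

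CTSS was lower in fetuses with more background control signal. Its r with that signal was -0.67 (permutation p = 0.00036) and its rho -0.70 (permutation p = 0.00024), with an adjusted p of 0.0012 in limma and r = -0.59 without the 2 fetuses farthest from the median signal. Fetus 313 had the lowest CTSS level and the highest background signal (7.94). CTSD (r = 0.55, permutation p = 0.0048, adjusted p = 0.015 in limma) and CTSZ (r = 0.49, permutation p = 0.017, adjusted p = 0.029 in limma) rose with it. These 3 of 9 calls stand beside 41.6% of all probe sets called with the same signal. For CTSD and CTSZ, rho was 0.48 and 0.33 (permutation p = 0.018 and 0.11), and r without the 2 farthest fetuses was 0.37 and 0.23. On ranks, CTSZ was not called (adjusted p = 0.13 in limma) and CTSH was (adjusted p = 0.044 in limma). Without fetuses 338 and 376 only CTSS was called, and with the first principal component as a covariate none of the 9 was, in limma.

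**Figure D4:**
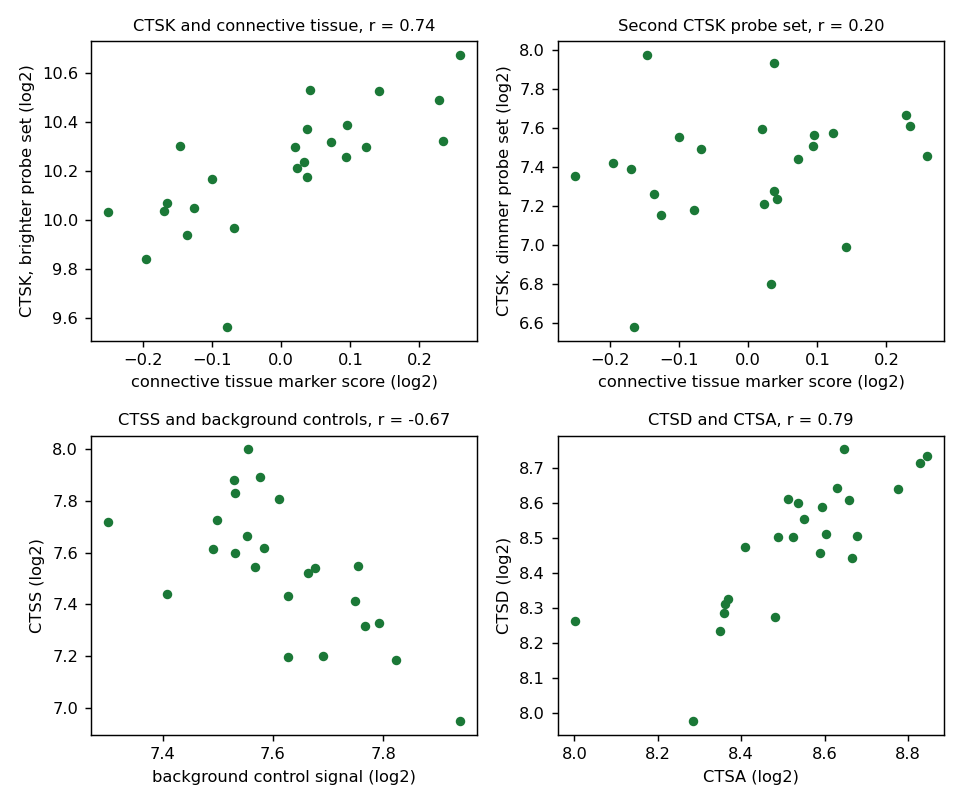
CTSK at its brighter and its dimmer probe set against the connective tissue marker score, CTSS against the background control signal, and CTSD against CTSA, all in log2 units, with 1 point per fetus (24 points a panel). Pearson's r is 0.74 for the brighter and 0.20 for the dimmer CTSK probe set, -0.67 for CTSS and 0.79 for CTSD with CTSA.

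The macrophage score gave no call for any cathepsin, CTSC and CTSS of immune cells included. With it, 0 of 9 cathepsins were called in limma, beside 0.0228% of all probe sets, and 1059 probe sets had an unadjusted p under 0.05. CTSC had r = 0.35 with it (permutation p = 0.099, adjusted p = 0.84 in limma), CTSB had r = 0.31 and rho = 0.45 (permutation p = 0.14 and 0.028, adjusted p = 0.84 in limma, r = 0.60 without the 2 farthest fetuses) and CTSS had 0.23 (permutation p = 0.29, adjusted p = 0.85 in limma). The 10 macrophage markers had a mean r of 0.20 with each other, so the score is an uneven measure of macrophages. Singly, MRC1 (the mannose receptor) had r = 0.65 with CTSS (adjusted p = 0.014 in limma) and AIF1 (a cytoskeletal protein of macrophages) had r = -0.59 (adjusted p = 0.024 in limma), both named after their values were seen. Both calls were lost with the background control signal as a covariate (r = 0.32 for MRC1 and -0.43 for AIF1, adjusted p = 0.78 and 0.72 in limma) and with the first principal component (adjusted p = 0.16 and 0.098 in limma). The CTSS fit then called 0 of 21901 probe sets in limma under either covariate, with 1488 and 5066 at an unadjusted p under 0.05.

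Of the 8 antigen presentation genes, 0 were called with CTSS in limma, with a median r of -0.01 and 8246 probe sets at an unadjusted p under 0.05. This stands beside 18.7% of all probe sets called with CTSS in both directions, and 8 genes are too few to show a lack of relation. CD74, the invariant chain that CTSS cleaves, had r = -0.16 with CTSS and 0.73 with CTSZ (adjusted p = 0.57 and 0.0022 in limma). SLA-DMA, the peptide-loading chain, had r = 0.77 with CTSA (adjusted p = 0.00027 in limma), and SLA-DQA, a class II chain, had 0.63 with CTSH (adjusted p = 0.0057 in limma). CTSA had positive calls with 4 of the 8 genes, beside 23.3% of all probe sets. Without fetuses 338 and 376 it had 2, beside 3499 of 21901 probe sets. SLA-DMA with CTSA was still called with the first principal component as a covariate (adjusted p = 0.0054 in limma), while CD74 with CTSZ (adjusted p = 0.23 in limma) and SLA-DQA with CTSH (adjusted p = 0.059 in limma) were not.

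With the skeletal muscle fibre score, 0 of 9 cathepsins were called in limma, beside 0.0778% of all probe sets, and 2601 probe sets had an unadjusted p under 0.05. The highest r were 0.42 for CTSZ (permutation p = 0.041, adjusted p = 0.37 in limma) and 0.42 for CTSB (permutation p = 0.043, adjusted p = 0.39 in limma), and the lowest was -0.37 for CTSK (permutation p = 0.078, adjusted p = 0.45 in limma).

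The endothelial score, a test added after the data were seen, called the same 5 genes that formed the block, at their brightest probe sets. Its r was 0.80 with CTSA, 0.76 with CTSB, 0.74 with CTSZ, 0.56 with CTSD and 0.55 with CTSH (permutation p = 1e-05, 1e-05, 3e-05, 0.0042 and 0.0055; adjusted p = 0.00064, 0.0011, 0.0011, 0.02 and 0.019 in limma). These 5 of 9, all positive, stand beside 27.6% of all probe sets, with 4389 called positive and 1657 negative. The dimmer CTSK probe set was also called (r = 0.46, adjusted p = 0.049 in limma). The dimmest CTSH probe set was not (r = 0.30, adjusted p = 0.27 in limma), and the other dimmer ones of CTSH were. Without fetuses 338 and 376, CTSA, CTSB and CTSZ were still called. With the first principal component as a covariate, CTSA (r = 0.68) remained and CTSS (r = 0.72) was called. The 9 endothelial markers had a mean r of 0.18 with each other, and fetus 376 was lowest in this score and in CTSA.

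Markers of other cell types gave calls in both directions. CD36, a fatty acid transporter of fat cells and capillaries, was called with a negative relation to all 5 genes of the block, from r = -0.56 with CTSZ (adjusted p = 0.012 in limma) to -0.79 with CTSD (adjusted p = 3.6e-05 in limma). FABP4, a fatty acid carrier of the same cells, was called positive with CTSB (r = 0.66, adjusted p = 0.0017 in limma), CTSH (r = 0.47, adjusted p = 0.042 in limma) and CTSZ (r = 0.67, adjusted p = 0.0032 in limma). These 2 were the only adipocyte markers of 6 called with any cathepsin. Of 4 lymphocyte and mast cell markers and 2 erythroid markers, PRF1 was called with CTSA (r = -0.57, adjusted p = 0.022 in limma) and ALAS2 with CTSD (r = 0.44, adjusted p = 0.049 in limma), and no other call was made. When fetuses 338 and 376 were left out, PRF1, ALAS2, FABP4 with CTSH, and CD36 with CTSH and CTSZ were no longer called (adjusted p = 0.29, 0.1, 0.13, 0.076 and 0.16 in limma). Only PRF1 with CTSA was called with the first principal component as a covariate (adjusted p = 0.0042 in limma).

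The genes of highest r with each cathepsin are the last measure given. CTSA was nearest to UBR4, a ubiquitin ligase (r = 0.91), ECE1 and NUP98 (both r = 0.91). CTSB was nearest to PTDSS1, a phosphatidylserine synthase (r = 0.89), DRG1 (r = 0.89) and EIF4GI (r = 0.88). CTSD was nearest to CD34, a surface protein of endothelial and progenitor cells (r = 0.91), XYLT1 and AP2S1 (both r = 0.87). CTSH was nearest to TMEM231 (r = 0.89), HEXA (r = 0.87) and PRKAG1 (r = 0.87). CTSZ was nearest to AS-A (r = 0.89), NISCH (r = 0.89) and DCAF7 (r = 0.86). Of these 15 genes, HEXA and AS-A encode lysosomal enzymes of the lists used here. These r were taken without a covariate. With the first principal component as a covariate, limma called 5310 probe sets with CTSA, 327 with CTSD, 159 with CTSH and 31 with CTSB. It called 0 of 21901 with CTSZ, where 3522 had an unadjusted p under 0.05.

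For the other genes the nearest correlations were lower. CTSL1 was nearest to RAB2A, a small GTPase of the secretory pathway (r = 0.81), SGCE and BOC (both r = 0.80). CTSS was nearest to SMAD2, a transducer of TGF-beta signals (r = 0.83), ELF1 (r = 0.83) and RABGAP1 (r = 0.81). With the first principal component as a covariate, the CTSS fit called 0 of 21901 probe sets in limma, with 5066 at an unadjusted p under 0.05. CTSC was nearest to TMEM41B, a membrane protein of the endoplasmic reticulum (r = 0.68), RNF130 (r = 0.68) and ELK3 (r = 0.68), and none of these 3 was called in the CTSC fit of limma, where 1623 probe sets had an unadjusted p under 0.05.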

How the data were processed

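RNA of longissimus dorsi muscle from 24 fetuses was hybridized to 1 array each. The authors normalized the arrays by RMA in Expression Console and deposited log2 values, 1 per probe set and fetus, and their notes name GCOS 1.1.1. RMA gives all arrays a similar distribution, which removes differences in overall brightness and can shift unchanged probe sets. For the genome build of the array: not given in the sources used here. The number of arrays limits the precision, and 1 array per fetus leaves technical and biological spread together.

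By the platform annotation, 26426 probe sets had a single gene symbol, and 21296 others are unnamed here. Probe sets above the median of their array in at least 80% of arrays were tested, and the brightest probe set (highest median) stood for a gene. Relations were fitted with limma 3.58.1 (R 4.3.3) on the log2 values, 2-sided, and adjusted by Benjamini-Hochberg over all probe sets tested, with a threshold of 0.05. Probe sets of the covariate's own genes were left out. The fits were tested on simulated data with independent probe sets and independent fetuses. That test cannot show the error rate on arrays that share a large component or come from related fetuses. Pearson's r and Spearman's rho had 100000 permutations over fetuses (2-sided, scipy 1.17.1). The background control signal was the mean of 39 controls whose probes hold at least 13 G or C. Away from the ends, the widest gap between neighbouring values was at most 0.18 of the range for any cathepsin or score, which cannot show groups that adjoin or overlap. The study's fit of weight group, sex and dam was not run. Alternatives were filters, averaging of probe sets, centring, ranks, covariates and left-out fetuses.

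Named genes were all members, the 3 genes of highest r for each, and up to 3 genes of highest r in each list. The members and lists were chosen with earlier results of these data known.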

Additional observations from a re-analysis of the deposited data

How the results depend on the processing

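Counts of cathepsins called with the macrophage and the fibre score were 0 under all alternatives run (the stricter filter left no macrophage score to fit, and 3 genes for the fibre score). For connective tissue, CTSK was called under all alternatives except the mean of probe sets, where 0 were. For the endothelial score, 5 calls became 3 without a filter, 3 without the 2 farthest fetuses, 2 with the first principal component as a covariate and 3 without fetuses 338 and 376. For the background control signal, 3 calls became 0 of 3 genes with the stricter filter, 1 without the 2 farthest fetuses, 0 with the first component, 1 without fetuses 338 and 376, 2 without a filter (CTSZ lost) and 4 with the mean of probe sets (CTSK added). On ranks, CTSH was called in place of CTSZ. With the first component, r with that signal turned to -0.11 for CTSD and -0.015 for CTSZ, both called before, and to -0.56 for CTSA, -0.54 for CTSB and -0.24 for CTSH, which were not. The 10 called pairs became 0 of 3 with the stricter filter (which left no pair of the block to test), 0 with the first component, 8 without the 2 farthest fetuses and 5 without fetuses 338 and 376. With the stricter filter, 3 of 3 cathepsins had a span above the median gene. The cause of these shifts was not tested. Of 360 values of r under the alternatives, 26 had another sign than the reported value, and 2 of these (the ones above) had been called. No paired analysis was possible because groups and pairs were taken only from the labels, which give neither, and the study's own listing of dam, sex and weight was not used. CTSA, CTSC, CTSD and CTSS stayed below the brightest background class in every fetus.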
